A study of Homo sapiens with 3 samples.

Results

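The expression of 36 genes that act in G2 phase and mitosis was examined in the established melanoma line SK-Mel-28 stably transfected with an siRNA vector against melanotransferrin (MTf; MELTF), an iron-binding transferrin homologue of the cell surface. The genes were taken by name, as all probe sets whose platform annotation gives 1 of the 36 symbols and no other gene. This gave 77 of 54613 non-control probe sets and 36 of 19775 named genes. A further probe set names CENPA together with another gene and was left out. The study hybridised total RNA to 3 Affymetrix Human Genome U133 Plus 2.0 arrays. Of these, 2 held RNA of cells stably transfected with a pSilencer 3.1-H1 neo vector encoding the siRNA against MTf, called B1 and B2 in the labels and siRNA arrays 1 and 2 here. The scrambled array held RNA of cells with the same vector and a scrambled insert. All 3 therefore share the cell line, the vector and stable transfection, and no array of untransfected cells was analysed here. Whether B1 and B2 came from separate clones or cultures is not said in the labels. The p-values therefore reflect just the scatter of these arrays, possibly technical. The scrambled array has no replicate.

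Entry into mitosis is driven by the kinase CDK1 bound to A- and B-type cyclins and freed from inhibitory phosphorylation by CDC25 phosphatases. Aurora and Polo kinases then build the spindle, and the spindle assembly checkpoint holds the anaphase-promoting complex (APC/C), a ubiquitin ligase, until every chromosome is attached. The complex then marks cyclin B and securin for destruction, chromosomes separate and the cell divides. Many of these genes are transcribed together late in the cell cycle through the MuvB complex with B-MYB and FOXM1, and their mRNAs are widely used as a readout of proliferation in melanoma and other tumours.

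Across the arrays the median signal was 174.3 and 199.5 on siRNA arrays 1 and 2 and 160.6 on the scrambled array. The ratio of 3′ to 5′ GAPDH control signal was 1.01, 1.01 and 1.03 in the same order. For the ACTB control it was 1.77, 1.87 and 2.0. Ribosomal RNA control probe sets stood apart on siRNA array 1, with a median ratio to the scrambled array of 3.76, against 1.06 on siRNA array 2. The targeted gene MELTF has 4 probe sets, of which the brightest read 18968 and 18974 on the siRNA arrays against 32608 on the scrambled array (log2 difference -0.78 ± 0.17, SE; limma adjusted p = 0.0699), while the next brightest read 10567 and 11199 against 8284. The dimmer MELTF probe sets read 693.7 and 665.7 against 546.4, and 699.7 and 283.6 against 915.2. The dimmest was thus at 76.5% and 31.0% of its scrambled signal. The melanocyte markers measured were above the highest bacterial control signal (97.2) on all arrays, 9 of 9, with sums of 259359 and 280544 against 302876. Single markers within that sum differed in opposite directions, as TYRP1, a melanin synthesis enzyme, fell to 5022 and 12370 against 53204 (limma adjusted p = 0.0374) and TYR, the tyrosinase, read 35193 and 37555 against 19988 (limma adjusted p = 0.0529). The TYRP1 call was lost when dim probe sets were kept or no trend of spread on signal was fitted, where 0 probe sets passed as lower. Summed fibroblast marker signals were 5903 and 6362 on the siRNA arrays and 2201 on the scrambled array. Most of the sum on the siRNA arrays is the proteoglycan gene LUM (4850 and 4841, against 598.6). Of the 8 fibroblast markers 5 and 5 were above 97.2 on the siRNA arrays and 6 on the scrambled array, COL1A1, DCN and THY1 among them on every array, while COL3A1 and PDGFRB were below it on every array. Epithelial markers summed to 2922 and 2790 on the siRNA arrays and 2015 on the scrambled array, mostly from KRT18 (2483 and 2148.5, against 1308). Of the 7 epithelial markers 2 and 3 were above 97.2 on the siRNA arrays and 3 on the scrambled array, KRT8 and KRT18 on every array, while EPCAM, CDH1, KRT19 and KRT14 were below it on every array. Leukocyte and endothelial markers summed to at most 730 each. Their part in the members' differences was not tested.

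On siRNA array 1 all 36 genes lay below their scrambled level, while siRNA array 2 was split, with 17 lower and 19 higher. Each gene is represented by its brightest probe set. On siRNA array 1 the 36 signals ranged from 34.3% to 90.2% of the scrambled signal, with a median of 63.0%. On siRNA array 2 they ranged from 60.2% to 199.0%, with a median of 101.0%. Log2 differences are on the scale of log2(signal + 47.4). Over the 36 genes siRNA array 1 had a median of -0.66 and siRNA array 2 one of 0.01, against 0.06 and 0.14 over the 12386 genes whose brightest probe set passed a filter on dim signals. The median of the mean difference was -0.30 in the members and 0.10 in those genes, or 0.08 over all 19775. Genes below the scrambled array on siRNA array 1 made up 45.3% of all genes past the filter, and on siRNA array 2 they made up 40.6%. All 36 members passed that filter in their brightest probe set. Both differences use the same scrambled array.

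**Figure D1:**
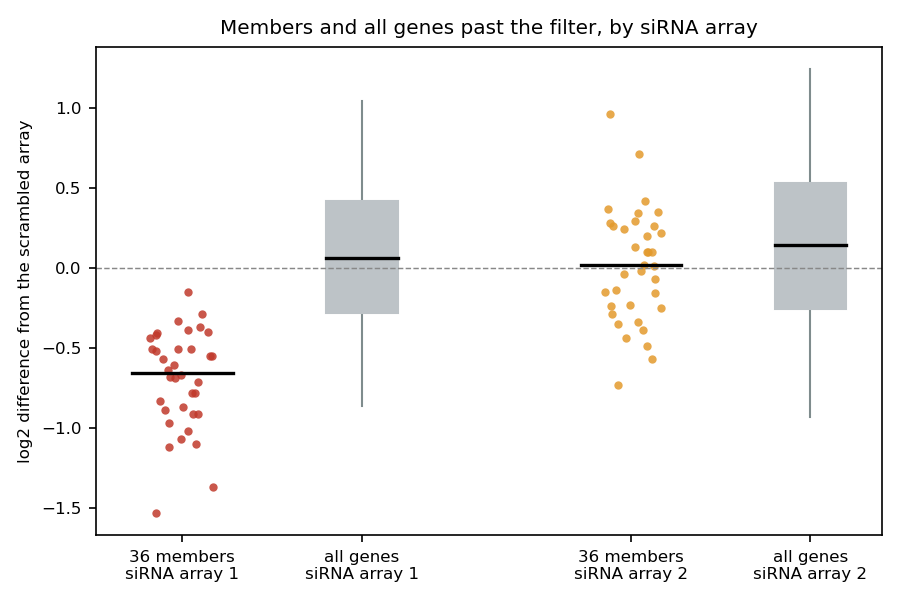
Log2 differences from the scrambled array for the 36 members (points; black bar, median) and for 12386 genes past the filter (grey box, middle quartiles; line, 5th to 95th percentile; black bar, median), by siRNA array. The members' medians of -0.66 (siRNA array 1) and 0.01 (siRNA array 2) compare with 0.06 and 0.14 for all genes past the filter.

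No member passed limma's test of both siRNA arrays against the scrambled array with Benjamini-Hochberg adjustment over all tested probe sets. The count was 0 of 67 member probe sets past the filter, where 2.09% of all 27306 tested probe sets passed at an adjusted p under 0.05 (1.19% higher and 0.905% lower). The lowest adjusted p among the 67 was 0.113. At an unadjusted p under 0.05 there were 8 member probe sets lower (11.9% of the 67) and 0 higher, where 7.77% of all tested probe sets were lower and 12.4% higher. Standard errors of the 36 brightest probe sets ran from 0.22 to 0.51, with a median of 0.32, against a median difference of -0.30. By direction alone, 17 of the 36 genes were lower on both siRNA arrays (32.5% of all genes past the filter) and 0 were higher on both (46.7%). The other 19 had opposite signs on the 2 siRNA arrays, which 20.8% of all genes past the filter had. Only CDK1 was at least 1.5-fold lower on both siRNA arrays in its brightest probe set, 1 of 36, against a background of 6.81%. With each array centred on its own median signal, 4 member probe sets passed, all lower, in CDK1 (log2 difference -1.30, adjusted p = 0.0201), AURKA (-1.10, adjusted p = 0.0259), CENPF (-1.39, adjusted p = 0.0325) and PTTG1 (-0.74, adjusted p = 0.0334). For AURKA and CENPF these were the second probe sets. Their brightest probe sets (log2 difference -0.9 in each with centring) did not pass. Under that scaling 1528 of all 27306 tested probe sets passed, 594 higher and 934 lower. The 2.09% above thus does not apply to these 4 of 67. With centring 26 genes were lower on siRNA array 2, all of them also lower on siRNA array 1. The share of all genes under centring is not given here. In RNA of whole cultures, fewer cells in G2 and mitosis and less mRNA per such cell cannot be told apart.

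Promoter letters that these genes share are shown here as a description of the list. No sequence was used to choose the genes, but many are known to be transcribed together through MuvB. The share of such letters is therefore a trait of the list and no result of the arrays. The letters TTTGAA are a form of the cell cycle homology region, contacted by LIN54 of the MuvB complex. CCAAT is the box bound by the NF-Y factor. RefSeq promoters (build GRCh38.p14, 250 bases before to 50 after each start) were found for 30 of the 36 genes, 40 promoters in all. AURKA, BUB3, TTK, UBE2C, BIRC5 and TPX2 had no entry. In the following stretches, 130 bases before to 50 after the start, capitals mark TTTGAA and CCAAT on either strand, so that TTCAAA and ATTGG are marked as well. Of 2 CDK1 promoters, the one with more such places near the start is shown. The first 6 genes hold both motifs, and CENPE and KIF2C, among the genes lowest on siRNA array 1, hold neither in these exact letters. Variant letters of the motifs were not searched, so these genes are not shown to lack the elements.
CDK1, chr10:60778348-60778527, plus strand: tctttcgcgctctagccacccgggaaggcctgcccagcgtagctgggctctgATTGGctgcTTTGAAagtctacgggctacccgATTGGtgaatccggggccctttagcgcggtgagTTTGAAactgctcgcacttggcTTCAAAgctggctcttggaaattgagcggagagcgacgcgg
CCNB2, chr15:59105016-59105195, plus strand: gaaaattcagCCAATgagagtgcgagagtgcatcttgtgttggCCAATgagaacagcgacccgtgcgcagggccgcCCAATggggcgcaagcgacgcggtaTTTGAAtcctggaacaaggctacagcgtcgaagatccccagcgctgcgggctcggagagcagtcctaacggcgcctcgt
PLK1, chr16:23678759-23678938, plus strand: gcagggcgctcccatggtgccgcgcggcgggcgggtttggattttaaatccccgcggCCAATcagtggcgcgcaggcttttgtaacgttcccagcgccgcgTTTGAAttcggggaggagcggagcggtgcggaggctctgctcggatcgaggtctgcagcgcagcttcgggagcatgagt
KIF23, chr15:69414219-69414398, plus strand: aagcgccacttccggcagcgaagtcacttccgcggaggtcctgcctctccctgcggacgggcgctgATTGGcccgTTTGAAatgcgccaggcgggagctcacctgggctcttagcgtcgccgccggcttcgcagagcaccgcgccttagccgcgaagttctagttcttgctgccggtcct
HMMR, chr5:163460502-163460681, plus strand: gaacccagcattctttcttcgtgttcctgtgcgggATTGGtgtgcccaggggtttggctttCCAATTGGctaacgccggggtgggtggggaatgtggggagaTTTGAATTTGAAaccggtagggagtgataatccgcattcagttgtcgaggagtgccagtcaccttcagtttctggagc
PRC1, chr15:90994486-90994665, minus strand: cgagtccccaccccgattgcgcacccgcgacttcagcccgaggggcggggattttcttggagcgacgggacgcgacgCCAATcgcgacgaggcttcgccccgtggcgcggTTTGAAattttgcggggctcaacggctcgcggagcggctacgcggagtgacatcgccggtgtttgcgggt
CENPE, chr4:103198294-103198473, minus strand: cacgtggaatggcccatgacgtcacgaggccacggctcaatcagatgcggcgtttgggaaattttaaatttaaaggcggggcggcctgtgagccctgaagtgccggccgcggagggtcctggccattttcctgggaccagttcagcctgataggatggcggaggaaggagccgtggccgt
KIF2C, chr1:44739707-44739886, plus strand: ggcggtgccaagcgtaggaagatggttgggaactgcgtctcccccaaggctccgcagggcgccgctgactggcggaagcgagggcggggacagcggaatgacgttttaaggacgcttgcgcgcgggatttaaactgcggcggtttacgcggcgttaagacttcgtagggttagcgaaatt

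The letters TTTGAA stood in 57.5% of the 40 member promoters (23), against 15.2% of all 35116 promoters in the table. Centred within 50 bases of the start they stood in 45% of member promoters and in 4.75% of all promoters. The letters CCAAT stood in 77.5% of member promoters and 34.6% of all promoters, and at 2 or more places in 47.5% and 10.8%. Both motifs together were found in 50% of member promoters and 5.9% of all promoters. In the CCNB2 stretch the CCAAT letters repeat 3 times before a single TTTGAA near the start, and in HMMR overlapping CCAAT letters on opposite strands stand before a tandem TTTGAA. For the 17 genes with TTTGAA near the start the median log2 differences of siRNA arrays 1 and 2 were -0.61 and -0.02. The other 13 genes with a promoter in the table had medians of -0.67 and 0.10. With TTTGAA counted anywhere in the promoter, the medians on siRNA array 1 were -0.59 with it (20 genes) and -0.74 without it (10 genes). For CCAAT they were -0.59 with it (26 genes) and -0.94 without it (4 genes). These differences were not tested, and a match of letters is a description of the window, not a bound site. Since only exact letters were counted, genes without them could still hold a variant of the element.

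**Figure D2:**
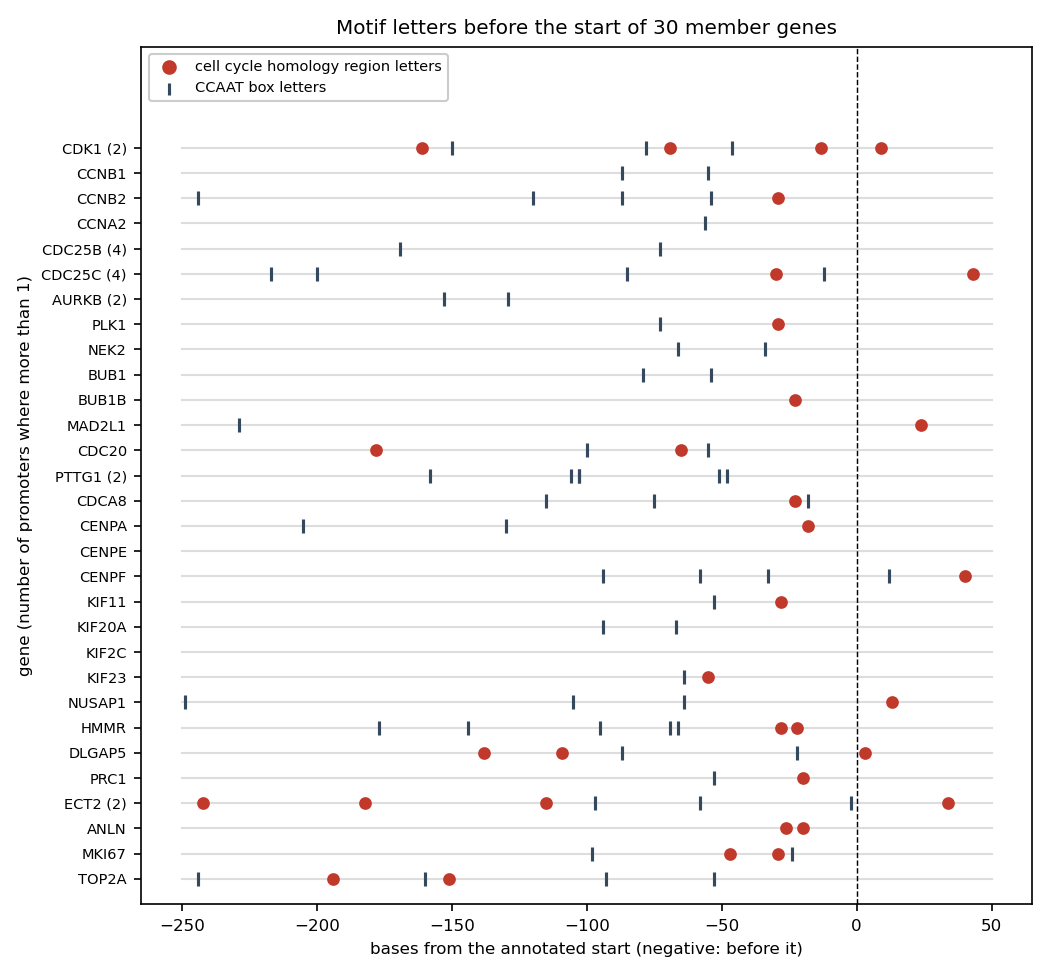
Places of TTTGAA (red points) and CCAAT (dark ticks), either strand, in the promoters of 30 member genes, as bases from the annotated start. Where a gene has several promoters their places are drawn together. Of 40 promoters 23 hold TTTGAA and 31 hold CCAAT.

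In the cyclin and CDK1 group, CDK1 itself, the kinase that triggers mitosis, read 3139 and 5520 on siRNA arrays 1 and 2, against 9164 on the scrambled array. Both siRNA arrays were below the scrambled array, and the mean log2 difference was -1.13 ± 0.33 (SE; limma adjusted p = 0.122), the lowest of the 36. Its other probe sets read 2671 and 4511 against 4788, 2063 and 3493 against 3597, and 33.3 and 24.0 against 112.1. All 4 were thus lower on both siRNA arrays, although the log2 difference on siRNA array 2 was only -0.09 and -0.04 in the 2 of intermediate brightness. The dimmest was below the highest bacterial control signal on both siRNA arrays, so that only a bound holds, at least 1.15-fold higher on the scrambled array. CCNB1, the main B-type cyclin, read 4488 and 9589 against 8347, below the scrambled array on siRNA array 1 and above it on siRNA array 2, while its other probe set was lower on both (990.4 and 1756, against 2180). CCNB2, the second B-type cyclin, read 2367 and 3903 against 2898. CCNA2, the cyclin of S and G2 phase, read 1210 and 1920.5 against 1598. All 3 cyclins had the same shape in their brightest probe sets, lower on siRNA array 1 and higher on siRNA array 2. In each of them the second probe set was instead lower on both siRNA arrays. Of the CDC25 phosphatases, which activate CDK1, CDC25B read 5755 and 8278.5 against 7743. CDC25C read 352.7 and 516.5 against 524.2. None of the 6 genes passed the test, and only CDK1 had an unadjusted p under 0.05.

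The mitotic kinases had the lowest median of the 9 role groups on siRNA array 2. AURKA, which matures centrosomes and the spindle, read 5651 and 9069 against 11904 (log2 difference -0.73 ± 0.29, SE; limma adjusted p = 0.224). A second AURKA probe set read 4700 and 6776 against 10796, with the lowest adjusted p of any member probe set (log2 difference -0.93 ± 0.26, SE; limma adjusted p = 0.113). Its dimmest read 259.1 and 211.7 against 389.0, so all 3 were lower on both siRNA arrays. AURKB, the kinase of the chromosomal passenger complex, read 1036 and 1247 against 1874 (log2 difference -0.70 ± 0.27, SE; limma adjusted p = 0.209). PLK1, the Polo kinase of centrosomes and kinetochores, read 771.6 and 942.8 against 1294 (log2 difference -0.57 ± 0.29, SE; limma adjusted p = 0.315). For these 3 kinases the siRNA arrays lay on the same side of the scrambled array, and AURKB and PLK1 differed least between the siRNA arrays of all 36 genes. NEK2, a centrosome-splitting kinase, read 1293 and 1857 against 1733 and was split in direction. As a group the kinases had medians of -0.77 (siRNA array 1) and -0.41 (siRNA array 2).

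The passenger complex subunits BIRC5 and CDCA8 had the same direction as AURKB on both arrays. BIRC5 (survivin) read 2380 and 3694 against 4126.5 (log2 difference -0.47 ± 0.30, SE). CDCA8 (borealin) read 975.5 and 1775 against 1961 (log2 difference -0.56 ± 0.37, SE). Neither passed the test, with limma adjusted p of 0.435 and 0.448. Of 4 BIRC5 probe sets, the dimmest read 452.7 and 684.8 against 465.2, above the scrambled array on siRNA array 2, unlike the other 3.

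Spindle checkpoint genes were lower on siRNA array 1 in all 5 cases, with a group median of -0.69, and near the scrambled level on siRNA array 2, with a median of -0.07. TTK, the MPS1 kinase that starts checkpoint signalling, read 1670 and 2699 against 3184 (log2 difference -0.57 ± 0.32, SE). BUB1B (BUBR1), a subunit of the inhibitor of the APC/C, read 1537 and 2550 against 2838. BUB1, the kinase that marks centromeres, read 2088 and 3245 against 3401. A second BUB1 probe set read 687.7 and 1174 against 921.2, above the scrambled array on siRNA array 2. The remaining checkpoint genes differed little in their brightest probe sets. MAD2L1 (MAD2), which captures CDC20, read 5772 and 7575.5 against 6400, the smallest difference of any member on siRNA array 1. However, a second MAD2L1 probe set read 2237 and 3308 against 3731, lower on both siRNA arrays. BUB3, the adaptor that brings BUB proteins to kinetochores, read 8907 and 11267 against 11219. A further BUB3 probe set read 6027 and 7292 against 10403 (log2 difference -0.65 ± 0.22, SE; unadjusted p = 0.0200, limma adjusted p = 0.162), whereas another read 8450 and 10710 against 8939.

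Genes of the APC/C step went both ways on siRNA array 2. CDC20, which activates the complex at anaphase, read 1886 and 3632 against 2790. UBE2C, its ubiquitin-conjugating enzyme, read 3503 and 5583 against 5495. PTTG1 (securin), the inhibitor of the protease that cuts cohesin, read 15451 and 20836 against 26631 (log2 difference -0.57 ± 0.22, SE; limma adjusted p = 0.213). PTTG1 was the member of this group lower on both siRNA arrays. Its single probe set is of the type that can detect related transcripts, and near-identical PTTG copies exist, so its signal cannot be assigned to PTTG1 alone.

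Centromere genes held 2 of the 3 largest differences on siRNA array 1. CENPE, a kinetochore kinesin that moves chromosomes to the spindle equator, read 576.9 and 1515 against 1561, or 36.9% and 97.0% of the scrambled signal. The low signal was thus on siRNA array 1 alone. CENPF, a kinetochore protein that accumulates in G2, read 4650 and 8005 against 10155 (log2 difference -0.73 ± 0.32, SE; limma adjusted p = 0.258). Its second probe set read 699.5 and 1331 against 2315 (log2 difference -1.22 ± 0.38, SE; limma adjusted p = 0.140), the largest mean difference of any member probe set past the filter. A dimmer one read 113.7 and 216.7 against 190.0. CENPA, the histone H3 variant of centromeres, read 1032 and 1557 against 1416, and its probe set too can detect related transcripts.

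Among 8 kinesin and spindle assembly genes, 3 were lower on both siRNA arrays. KIF2C (MCAK), which depolymerises microtubules at centromeres, read 3196 and 4655 against 6550 (log2 difference -0.76 ± 0.28, SE; limma adjusted p = 0.186), and its second probe set read 1123 and 1957 against 2599. HMMR, a spindle-associated hyaluronan receptor, read 3074 and 5407 against 6642 (log2 difference -0.70 ± 0.33, SE; limma adjusted p = 0.300), with a second probe set at 1624 and 2845 against 3625. KIF11 (Eg5), the motor that pushes spindle poles apart, read 1122 and 1538 against 1825. In these genes siRNA array 1 was lowest and the scrambled array highest. The other 5 were lower on siRNA array 1 and higher on siRNA array 2. KIF20A (MKLP2), a kinesin of late mitosis, read 875.4 and 2328 against 1170 and had the widest gap of any member between the siRNA arrays. KIF23 (MKLP1), of the central spindle, read 1561 and 2687 against 2510. TPX2, which activates AURKA on the spindle, read 4496 and 7126 against 5814. NUSAP1, a microtubule-bundling protein, read 3626 and 6589 against 5173. DLGAP5 (HURP), which stabilises spindle fibres at chromosomes, read 1726 and 3204 against 2664.

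Cytokinesis genes and the general proliferation markers were mostly of the split kind. PRC1, which bundles the central spindle, read 6259 and 10876.5 against 8975. ANLN (anillin), a scaffold of the contractile ring, read 3630.5 and 8756 against 5327, with 164.4% of the scrambled signal on siRNA array 2. ECT2, the exchange factor that activates RhoA at the cleavage furrow, was lower on both, at 3053 and 4851 against 5797 (log2 difference -0.58 ± 0.30, SE; limma adjusted p = 0.335). A second ECT2 probe set read 585.4 and 1163 against 1540, in the same direction. MKI67, the Ki-67 antigen that coats mitotic chromosomes, read 1696 and 3229 against 2540. TOP2A, the topoisomerase that untangles sister chromatids, read 4769 and 7945 against 6798. In these probe sets both markers lay below the scrambled array on siRNA array 1 and above it on siRNA array 2. A second TOP2A probe set of similar brightness was lower on both, at 4333 and 6357 against 7565.

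**Figure D3:**
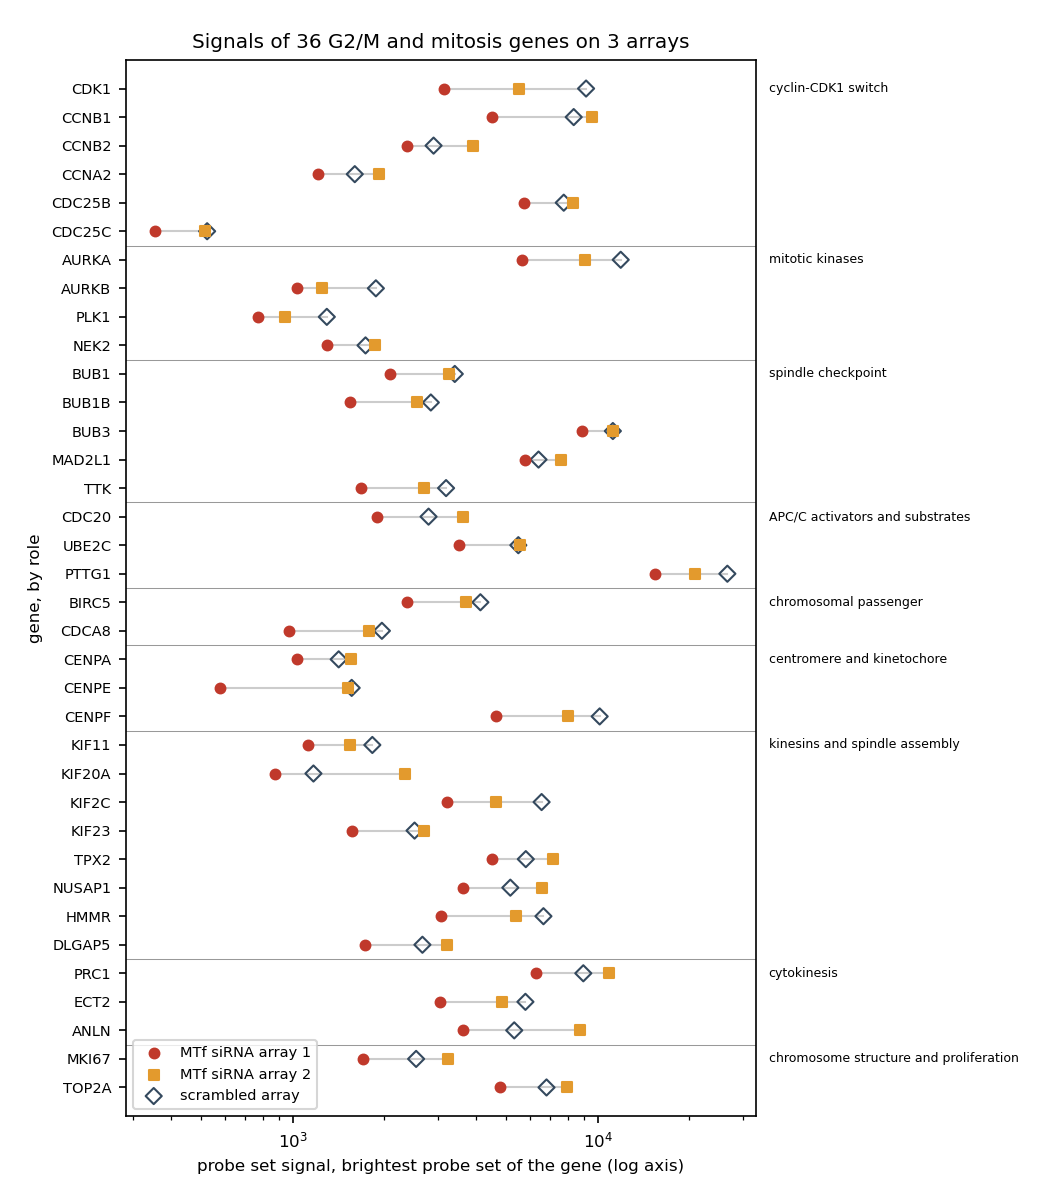
Signals of the brightest probe set of each of the 36 genes on siRNA array 1 (red), siRNA array 2 (orange) and the scrambled array (open diamond), on a log axis and grouped by role. Levels compare only within a gene: the red point is the lowest of the 3 in every row, and the orange square lies left of the diamond in 17 rows.

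The arrays of siRNA cells differed from each other in a single direction over these genes. Signals on siRNA array 1 were below those on siRNA array 2 for 36 of 36 members, where 55.8% of all genes past the filter were. The signal on siRNA array 1 was 62.1% of that on siRNA array 2 at the median, from 37.6% in KIF20A to 83.1% in AURKB. The median log2 difference of siRNA array 1 minus siRNA array 2 was -0.68 in the members and -0.05 over all genes past the filter. After KIF20A (-1.36) the widest gaps were in CENPE (-1.32), ANLN (-1.26) and CCNB1 (-1.09). At least a 1.5-fold lower level than in the scrambled array was seen for 20 members on siRNA array 1 (11.0% of all genes past the filter) and for 1 on siRNA array 2 (11.9%). On siRNA array 1 there were 6 members at least 2-fold lower (3.45% of all genes past the filter), namely CDK1, CENPE, CENPF, HMMR, AURKA and KIF2C. At least 1.5-fold higher on siRNA array 2 were KIF20A and ANLN, 2 of 36, against 22.5% of all genes past the filter. With 1 array on each side these gaps have no test. Ribosomal control signals also differed between the siRNA arrays, at 3.76 and 1.06 times the scrambled array, and their part in the gap was not tested. The 36 genes lie on 13 chromosomes, with at most 5 on any 1 of them.

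Probe sets of the same gene often differed, in sign or in size. Of the 20 members with several probe sets past the filter, 9 had probe sets on opposite sides of 0 in the mean log2 difference. On siRNA array 1 alone this was so for 4 of the 20, and on siRNA array 2 for 10. The range of log2 differences between the probe sets of a gene had a median of 0.40 for the mean of both siRNA arrays, 0.60 on siRNA array 1 alone and 0.48 on siRNA array 2 alone. Signs thus differed in fewer genes on siRNA array 1, while the ranges there were wider. For example, CCNA2 had a second probe set at 519.6 and 1030 against 1410 (log2 difference -0.90 ± 0.40, SE), against -0.07 ± 0.33 (SE) in its brightest. CCNB2 had one at 102.3 and 222.0 against 315.4, lower on both siRNA arrays. In the opposite direction, a dim KIF23 probe set read 141.9 and 461.0 against 123.6, and a dim AURKB probe set read 92.8 and 79.8 against 15.4, below the highest bacterial control signal throughout. Other members differed in the same way: MKI67 had 4 probe sets, with mean differences from -0.58 to 0.15, and MAD2L1 had 3, from -0.45 to 0.25. In CDC25C, NUSAP1, ANLN and BIRC5 the probe sets also lay on both sides of 0. Counting all 77 probe sets, 70 were lower on siRNA array 1 and 41 on siRNA array 2. Among the 67 past the filter, 63 and 35 were lower. Of all 27306 probe sets past the filter, 11879 and 11187 were. Of the 77, 10 did not pass the filter.

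**Figure D4:**
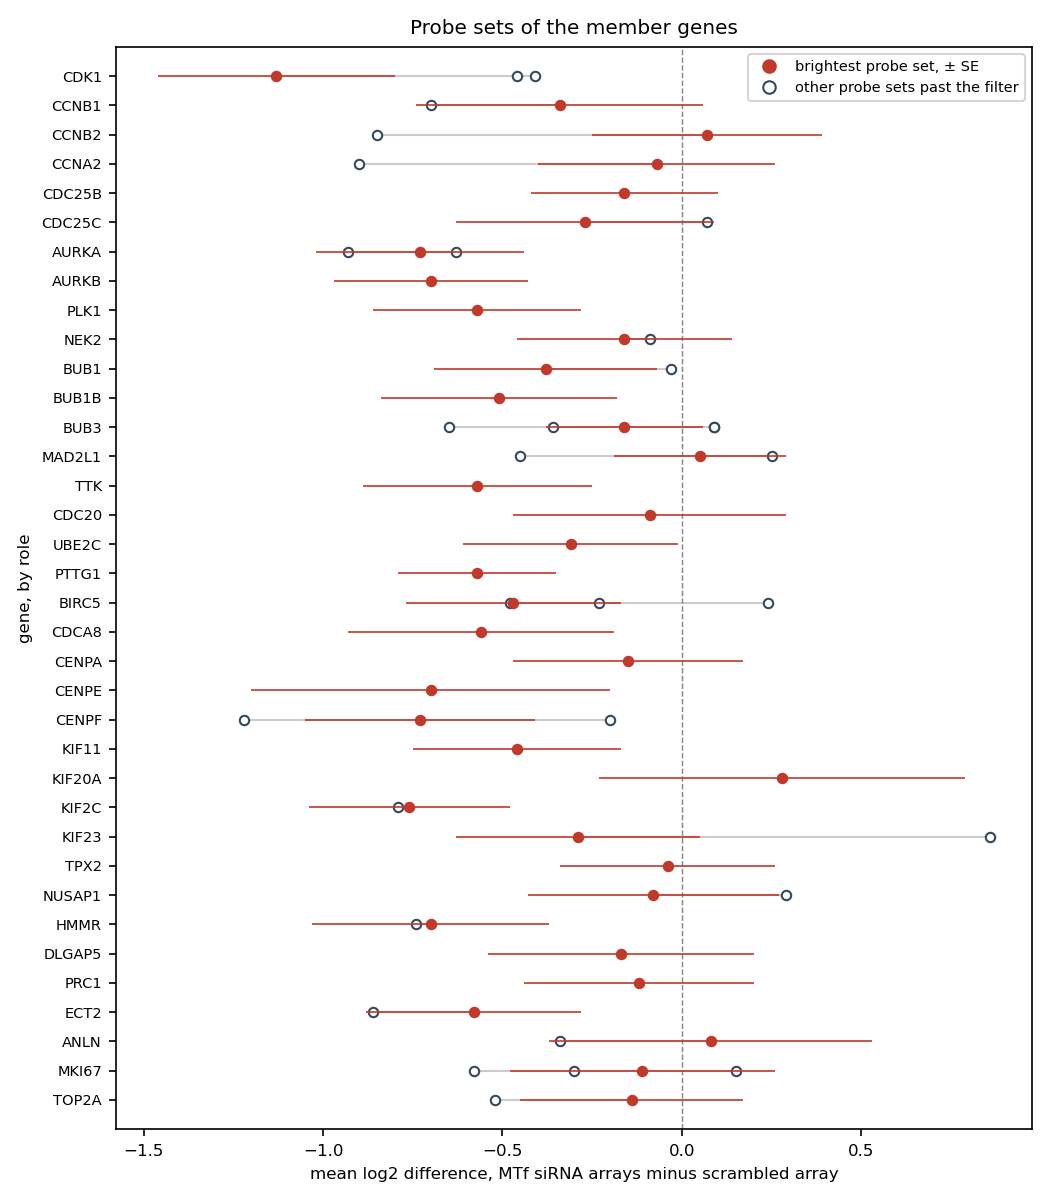
Mean log2 difference (siRNA arrays minus the scrambled array) of each member probe set past the filter. Filled points with bars are the brightest probe set ± SE from limma, open points the others. Of 36 filled points 32 lie below 0, and in 9 of 20 genes with several probe sets the points lie on both sides of 0.

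Other genes of the mitotic pathway did not all follow the members. In a list of APC/C subunits, FZR1 and related genes (16 measured past the filter), UBE2S, the enzyme that extends ubiquitin chains on APC/C substrates, fell to 13975 and 16402 on the siRNA arrays, against 35540 (log2 difference -1.23 ± 0.19, SE; limma adjusted p = 0.0323). CDC26, a small structural subunit, fell to 3644 and 3511 against 8118 (log2 difference -1.17 ± 0.22, SE; limma adjusted p = 0.0470). These were the 2 of 16 that passed, both lower and at similar levels on both siRNA arrays. Of all 12386 genes past the filter 327 passed, 186 higher and 141 lower. Medians of the APC/C list were -0.24 (siRNA array 1) and -0.35 (siRNA array 2). Among 26 regulators of entry into mitosis, 1 passed. This was GADD45A, a stress-induced inhibitor of CDK1, which fell to 12014 and 10656 against 30111 (log2 difference -1.41 ± 0.19, SE; limma adjusted p = 0.0255). This list's medians were -0.31 and 0.17. None of these 3 calls held without the filter on dim probe sets, with a filter at a higher percentile or without the trend of spread on signal, where adjusted p ranged from 0.0568 to 0.174 over UBE2S, CDC26 and GADD45A. CDC26 also missed the threshold with quantile normalization (adjusted p = 0.0693) and robust moderation (adjusted p = 0.0503).

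Kinetochore and centromere genes outside the 36 had medians of -0.09 (siRNA array 1) and 0.47 (siRNA array 2), with 0 of 31 past limma's test and 3 higher and 0 lower at an unadjusted p under 0.05. Of all 12386 genes past the filter, 1732 were higher and 1105 lower at that limit, which is the background for the lists below as well. CENPH, a subunit of the constitutive centromere network, read 802.3 and 925.9 against 312.9 (log2 difference 1.34 ± 0.30, SE; limma adjusted p = 0.0733). KNTC1 (ROD), which recruits dynein to kinetochores, read 1482 and 2099 against 921.1. CENPU, a partner of PLK1 at centromeres, read 3946 and 6313 against 2618. On the lower side were SKA1, of the complex that couples kinetochores to microtubules (624.0 and 710.4 against 1055), CENPL (1277 and 1140 against 1737), and the CENPA chaperone HJURP (2983 and 5395 against 6330.5). Over the 31 genes, 8 were lower on both siRNA arrays, 12 higher on both and 11 split. Among all genes past the filter these shares were 32.5%, 46.7% and 20.8%.

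Further mitotic kinesins and spindle factors (26 measured) had medians of -0.27 and 0.19, with 0 past limma's test and 2 higher and 1 lower at an unadjusted p under 0.05. KIF14, a kinesin of cytokinesis, read 1069 and 1850 against 2670, KIF22 read 850.9 and 915.3 against 1308, and HAUS6, of the augmin complex, read 1469 and 1700 against 2211. HAUS1, of the same complex, lay the other way, at 3104 and 3755 against 1879. RACGAP1, the partner of KIF23 in centralspindlin, read 5977 and 8533 against 4368, above the scrambled array on both siRNA arrays, whereas KIF23 was split. The tubulin TUBG1, of microtubule-nucleating complexes, read 3308 and 4711 against 2617.

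Condensin and cohesin genes (19 measured) had medians of 0.00 and 0.25, with 0 past limma's test and 3 higher and 2 lower at an unadjusted p under 0.05. STAG1, a cohesin subunit, read 2082.5 and 2437 against 4103, CDCA5 (sororin), which protects cohesion, read 905.2 and 1182 against 1712, and the cohesin loader NIPBL read 1944 and 1436 against 2414. PDS5B, a cohesin regulator, lay the other way, at 2577 and 2599 against 1240. So did 2 condensin II subunits, NCAPD3 at 2484 and 2415 against 1323, and NCAPH2 at 603.1 and 762.7 against 394.3. Checkpoint and passenger partners (9 measured) had medians of -0.28 and 0.23, with 0 past limma's test and 0 higher and 1 lower at an unadjusted p under 0.05. MAD2L1BP, which disarms MAD2, read 7336 and 5802 against 10031, and MAD1L1, the kinetochore receptor of MAD2, read 9695 and 9462 against 12990. The passenger scaffold INCENP read 268.0 and 181.9 against 117.9, the AURKA cofactor BORA read 711.8 and 819.6 against 603.5, and MAD2L2 read 7148 and 7395 against 6275.

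Regulators of late cell cycle transcription (17 measured) had medians of 0.04 and 0.24, with 0 past limma's test and 5 higher and 5 lower at an unadjusted p under 0.05. NFYA, the subunit of NF-Y that reads the CCAAT box, read 1614 and 1160 against 3593 (log2 difference -1.36 ± 0.29, SE; limma adjusted p = 0.0621). TFDP2, a partner of E2F factors, read 2039 and 2595 against 5028, and the kinase DYRK1A, which phosphorylates LIN52 of MuvB, read 6526 and 4992 against 10740. MYBL2 (B-MYB) read 324.8 and 516.8 against 99.6, and LIN9, a core MuvB subunit, read 283.1 and 289.3 against 97.5. On the scrambled array both barely exceeded the brightest bacterial control (97.2). RBL2, the pocket protein p130 of the repressive DREAM complex, read 3220 and 3153.5 against 1988.5.

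Genes of DNA replication and the G1/S transition, a step before G2, had the highest medians of the 8 lists on both siRNA arrays. Over 42 measured genes the medians were 0.31 (siRNA array 1) and 0.76 (siRNA array 2), with 28 higher on both siRNA arrays (46.7% of all genes past the filter were), 1 lower on both (32.5%) and 13 split (20.8%). On siRNA array 1 alone 12 of the 42 were lower. MCM6, a subunit of the replicative helicase, rose to 8768.5 and 11948 against 3990 (log2 difference 1.35 ± 0.25, SE; limma adjusted p = 0.0459). It was the 1 of 42 that passed, where 327 of all 12386 genes past the filter did. That call too was lost without the filter (adjusted p = 0.161), with the higher filter (0.0714), without the trend (0.182) and with quantile normalization (0.0524). Between the siRNA arrays the gap was similar to that of the members. The median of siRNA array 1 minus siRNA array 2 was -0.64, with 39 of 42 genes lower on siRNA array 1. The same median was -0.55 in the kinetochore list (29 of 31 lower on siRNA array 1) and -0.51 among the further kinesins and spindle factors (25 of 26). It was -0.05 in the APC/C list (9 of 16). The difference between the members and these lists was not tested.

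**Figure D5:**
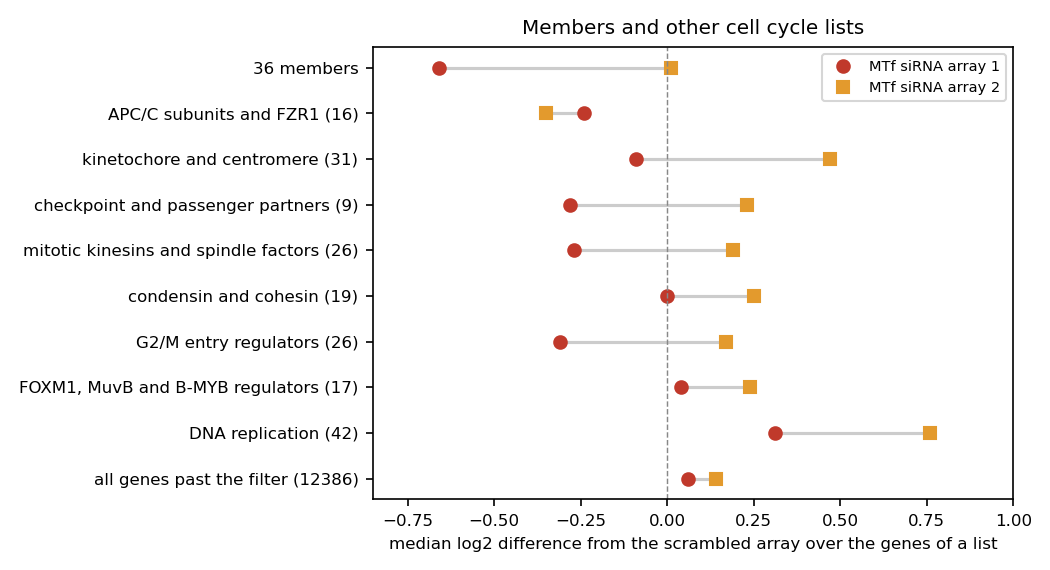
Median log2 difference from the scrambled array on siRNA array 1 (red points) and siRNA array 2 (orange squares) for the 36 members, 8 other cell cycle lists and all genes past the filter, with the number of genes measured in parentheses. The members lie at -0.66 and 0.01, DNA replication genes at 0.31 and 0.76.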

How the data were processed

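The deposited probe set intensities are linear, with a single value for every probe set on each array, from GCOS 1.3 per the submitters' processing notes. The mean after trimming 2% of values at each end was 1000.1 on each array, so the authors had scaled the arrays before deposit. Detection calls were not used here. There were 0 value columns of other samples.

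Of 54675 probe sets 62 controls were left out. The annotation named 1 gene for 41091 probe sets, several for 1801 and none for 11721. Signals were analysed as log2(signal + 47.4), the pseudocount being the 25th percentile. Testing covered the 27306 probe sets whose mean log2 value exceeded the median of 7.74, with limma 3.58.1 in R 4.3.3 (lmFit, eBayes with trend, 1 residual and 6.36 prior degrees of freedom), two-sided, with Benjamini-Hochberg adjustment at 0.05. The fit takes the single scrambled array to be as variable as the siRNA arrays. The brightest probe set by mean log2 value stands for a gene. The number of arrays limits the precision.

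All 36 members are named. Values of other probe sets are given for some members, not for every one where they differ in sign or size. From each other list the genes past the threshold are named, or, with none, up to 3 lower and 3 higher with the largest smaller difference. Members and lists were chosen with earlier results of these data known. Alternatives changed scaling, pseudocount, filter, spread model, probe set choice and arrays. Promoter sequences are from RefSeq, GRCh38.p14, which served only for symbols, chromosomes and promoters.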

Additional observations from a re-analysis of the deposited data

Results flagged for a closer look

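Control probe sets for ribosomal RNA enter no comparison. Their median signal ratio to the scrambled array was 3.76 on siRNA array 1, against 1.06 on siRNA array 2. They stand out as a signal outside the comparisons that lies above the scrambled level on the array where all 36 mitotic genes were lowest. Their part in those differences was not tested.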

How the results depend on the processing

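With siRNA array 1 left out, the median log2 difference of the 36 genes was 0.01, and with siRNA array 2 left out it was -0.66, against -0.30 with both, so its direction rests on siRNA array 1. Left-out arrays gave 17 to 36 genes lower and 1 to 20 at least 1.5-fold lower. With arrays centred on their medians, 26 genes were lower on both siRNA arrays (17 as reported), 7 were at least 1.5-fold lower on both (1 as reported), 4 member probe sets passed the test (0 as reported) and 1528 probe sets passed in all, 594 higher and 934 lower (571 as reported, 324 higher and 247 lower). That scaling moved the median of all tested probe sets from 0.11 to -0.06, turned CCNB2 to -0.10, MAD2L1 to -0.12 and ANLN to -0.09, and brought CDK1 and PTTG1 past the threshold. Shares over all genes are not given for centring. The higher member counts under it therefore cannot be told apart from the shift of the whole table. Quantile normalization gave 357 probe sets past the threshold in all, 2 genes at least 1.5-fold lower on both siRNA arrays, and 0.02 for TPX2 (-0.04 as reported). Over all probe sets, 9 passed when just the probe sets above the 75th percentile of mean signal were tested, 1 when dim probe sets were kept, and 1 when no trend was fitted. Member probe sets past the threshold numbered 0 under every setting run for them other than centring, with 3 to 9 at an unadjusted p under 0.05 (21 with centring). The median of the 36 genes lay between -0.47 and -0.25 under the alternatives that kept all arrays. No paired analysis was possible because the groups share fewer than 2 replicate numbers.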
